A study of Mus musculus with 9 samples.

Results

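The comparison described here sets a Gprc5a knockout epithelial line from mouse trachea against a wild-type line of the same origin. It uses 6 of the 9 arrays of the series, 3 of each line, chosen by their titles. Each line came from tracheal epithelium of a mouse aged 3 weeks, either with Gprc5a intact (wild-type) or with the gene deleted (knockout). Both mice were of the C57/BL6 x sv129 background, and both lines are called normal and non-tumorigenic by the submitters. The other 3 arrays were of an adenocarcinoma line from a knockout mouse given the tobacco carcinogen NNK. They entered the estimate of the spread between arrays, the choice of each gene's probe set, the background floor and some alternative settings. They were not compared with either line here. Each genotype is represented by 1 line, so genotype, line and culture history cannot be told apart. The labels do not say whether the arrays of a line came from separate cultures, and p-values therefore reflect only how far arrays of a line differ.

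Gprc5a encodes a receptor-like membrane protein that retinoic acid induces and that is abundant in lung epithelium. Mice without it develop lung adenocarcinoma late in life. The surface epithelium of the trachea is renewed by basal cells, which carry keratins 5 and 14 and the transcription factor p63, and which in culture can turn either towards secretory and ciliated cells or, as in skin, towards squamous cells that build a cornified envelope. The comparison asks what distinguishes airway epithelial cells without Gprc5a before any tumour has formed.

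All signals below are log2 values, so a difference of 1 is a 2-fold change, and every difference is knockout minus wild-type given with its standard error (limma, 3 arrays a line). A gene was called higher or lower when it differed at least 2-fold with an adjusted p (Benjamini-Hochberg, over all probe sets) under 0.05. "Rose" and "fell" are used only of called genes. Signals under 5.15, the 95th percentile of 27 bacterial control probe sets, are treated as background, and where all 3 arrays of the dimmer line lay under it the fold is given as a lower bound against that floor.

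Arrays of 1 line were closely alike. Pearson's r over all non-control probe sets, a description since probe sets are not replicates, was 0.990 to 0.994 among wild-type arrays, 0.994 to 0.996 among knockout arrays and 0.971 to 0.975 between the lines. Wild-type replicate 3 had the largest gap between 3' and 5' control probe sets, 1.78 log2 for beta-actin against 0.75 to 1.09 on the other wild-type and 0.90 to 0.95 on the knockout arrays. The mean gap did not separate the lines (difference -0.28, exact permutation p = 0.6, where 3 against 3 arrays cannot go below 0.1). The hybridisation control BioB-M, added to the sample and not made by the cells, was highest on knockout replicate 3, at 9.48 against 8.32 to 8.83 on the other 5 arrays. Without wild-type replicate 3 the count of called genes was 904, and without knockout replicate 3 it was 882, against 888 with all arrays. Of the mouse controls, the largest difference between the lines (-2.04) was at the probe set for the B1 repeat, a short element scattered through mouse transcripts, which read 11.97, 11.59 and 12.31 on the wild-type and 9.98, 10.02 and 9.76 on the knockout arrays. The arrays of the lines also did not overlap at most pyruvate carboxylase and transferrin receptor controls. These differed by 0.26 (at background), 0.29, 0.37, 0.39 and 0.48. Among all non-control probe sets, 31.5% had no overlap.

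Gprc5a itself was lower in the knockout line and was not at background there. Its signal was 8.63, 8.74 and 8.32 on the wild-type arrays and 7.20, 7.09 and 7.18 on the knockout arrays, and the highest knockout array lay below the lowest wild-type array. The difference was -1.41 ± 0.11 (limma adjusted p = 2.80e-06). The files do not say whether the probe set lies inside the deleted part of the gene, so what the knockout signal represents was not tested. The related receptor genes Gprc5b (-0.32), Gprc5c (-0.45) and Gprc5d (0.03) were not called. None of the 40 measured genes nearest to Gprc5a on chromosome 6, 20 on each side, was called by limma, against 4.88% of all genes. Of the 40, 12 had an unadjusted p under 0.05. Such counts, here and below, do not show a change by themselves, since 4109 of all 18193 genes passed even the adjusted p with no fold limit. The median difference of the 40 was -0.01. The largest difference among the 40 was 0.94, at Crebl2, named after its value was seen.

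In all, 888 of 18193 genes were called (4.88%), 345 of them higher (1.9%) and 543 lower (2.98%) in the knockout line. The median over all genes was -0.0042. Large changes were more often falls: of 231 genes that differed at least 4-fold, 84 were higher and 147 lower, and of 39 that differed at least 16-fold, 10 were higher and 29 lower. The arrays of the lines did not overlap for 886 of the 888 called genes, and for 39.1% of all genes. A further 3221 genes passed the adjusted p but differed by less than 2-fold. For 82 called genes the dimmer line lay under the floor on all its arrays, the wild-type line for 29 and the knockout line for 53. Of 45037 probe sets, 1672 were called (3.71%), 723 higher (1.61%) and 949 lower (2.11%), and 153 of these carried no single gene symbol and are not described further.

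**Figure D1:**
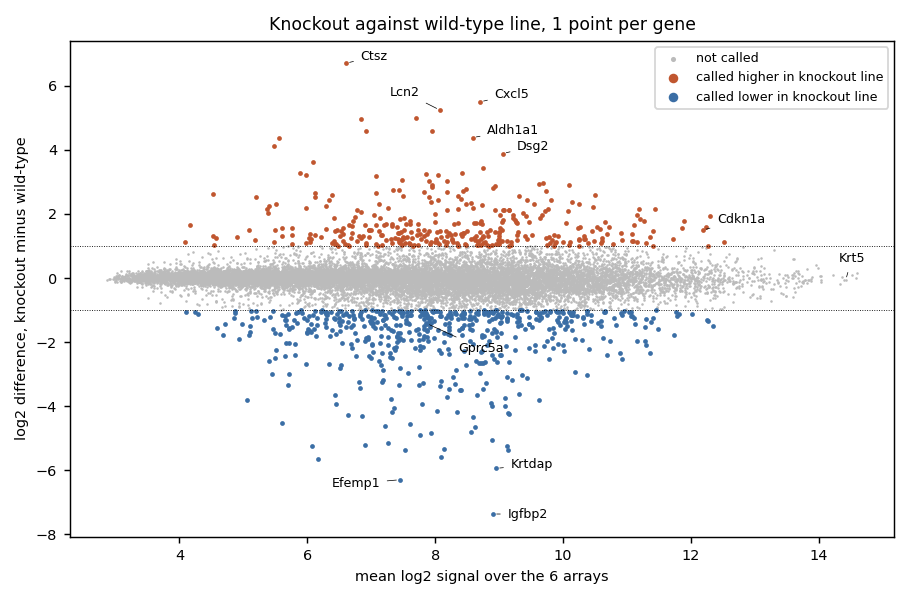
Each point is 1 of 18193 genes, with its mean log2 signal over the 6 arrays on the x axis and its log2 difference, knockout minus wild-type, on the y axis; dotted lines mark a 2-fold change. Called genes (345 higher in orange, 543 lower in blue) lie across the range of signal, the falls reach further from 0 than the rises, and Gprc5a lies at -1.41 among many genes with larger differences.

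The 15 largest rises were led by Ctsz, Cxcl5 and Lcn2. Ctsz, a lysosomal cysteine protease, was at background in the wild-type line (3.16, 3.39 and 3.23) and read 9.85, 10.13 and 9.90 in the knockout line, at least 28-fold higher (limma adjusted p = 2.05e-11). The neutrophil-attracting chemokine Cxcl5 read 5.70, 6.13 and 6.04 against 10.94, 11.80 and 11.61, a difference of 5.50 ± 0.25. Lcn2, which sequesters bacterial iron carriers, read 5.54, 5.63 and 5.18 against 10.06, 11.21 and 10.81, a difference of 5.24 ± 0.24. In both, knockout replicate 1 was the lowest knockout array and still stood far above every wild-type array. Ltf, the iron-binding lactoferrin, showed the same order among knockout arrays (9.37, 10.61 and 10.21) over wild-type values of 6.68, 6.93 and 6.72. Dsg2, a desmosomal cadherin of simple and basal epithelium, went from 7.05, 7.16 and 7.14 to 11.14, 10.84 and 11.02, and all 6 of its probe sets were called higher. Aldh1a1, which oxidises retinaldehyde to retinoic acid, went from 6.10, 6.44 and 6.65 to 10.55, 10.90 and 10.89. Aldh2, the mitochondrial aldehyde dehydrogenase, rose by 3.42 ± 0.10, but only 1 of its 5 probe sets was called and their average was 1.11.

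The other genes among the 15 largest rises were Sncg, a synuclein (5.0), Tceal8 (4.58) and, with all wild-type arrays under the floor, Tmem47, Akr1c13, Zfp979, Hoatz, the carboxylesterase Ces1g and the zinc-finger gene Zfp229. Their lower bounds ran from 5.17-fold for Zfp229 to 18.1-fold for Tmem47. The arrays of the 2 lines did not overlap for any of the 15, since that was part of the rule by which they were chosen.

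The largest falls were led by Igfbp2, a secreted binding protein of insulin-like growth factors, which read 12.85, 12.25 and 12.66 in the wild-type line and 5.15, 5.24 and 5.28 in the knockout line, a difference of -7.36 ± 0.14 (limma adjusted p = 2.61e-11). The knockout values lay at the edge of background. Efemp1, a matrix glycoprotein of the fibulin family, read 10.40, 10.65 and 10.74 against 4.10, 4.35 and 4.46 and was at least 43.6-fold lower. Scd1, the stearoyl-CoA desaturase that makes monounsaturated fatty acids, read 11.41, 11.43 and 11.41 against 6.79, 5.80 and 6.53. Its wild-type arrays were nearly equal while its knockout arrays were spread out, with replicate 2 lowest. Fstl1, a secreted antagonist of bone morphogenetic proteins, was at least 25.7-fold lower, and Sostdc1, which antagonises both BMP and Wnt ligands, at least 33.2-fold lower. H60c, a ligand of the natural killer cell receptor NKG2D found in skin, fell by 5.36 ± 0.10. Clca2, a squamous epithelial membrane protein, was at least 20.4-fold lower, and C1qtnf3, a secreted relative of complement C1q, at least 11.7-fold lower.

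Genes of cornifying keratinocytes made up much of the rest of these 15: Krtdap, Dapl1, Capns2, Lce3a and Sprr1b, with Krt19 the only keratin among them. Eif2s3y, carried by the Y chromosome, read 8.94, 8.92 and 9.13 on wild-type arrays and 3.33, 3.30 and 3.42, which is background, on knockout arrays, and the average of its probe sets differed by -3.02. Of the other sex-linked genes, Uty fell by 1.08 ± 0.17, but not without wild-type replicate 2 (-0.87) or knockout replicate 2 (-0.99). Kdm5d was not called on its brightest probe set (-0.21) and was by the mean of its probe sets (-1.67), and Xist differed by -0.33. The labels give no sex for the mouse of either tracheal line.

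**Figure D2:**
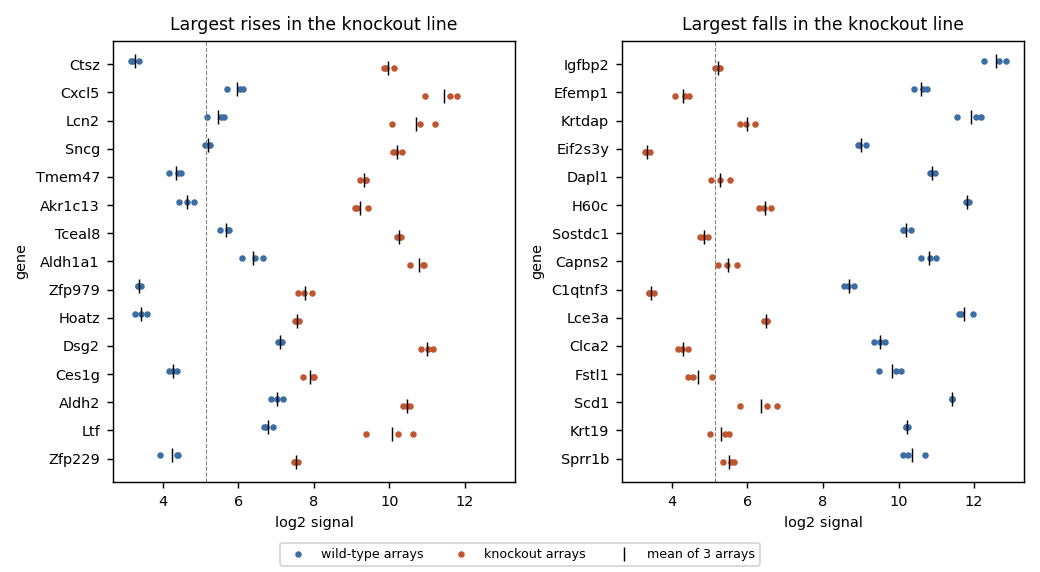
Log2 signal of the 15 genes with the largest rise (left) and the largest fall (right), with 1 point per array, blue for wild-type and orange for knockout, and a bar at each mean of 3 arrays; the dashed line is the background floor of 5.15. The 2 lines are separated for every gene shown, and the knockout arrays spread most for Ltf, from 9.37 to 10.61, and Lcn2, from 10.06 to 11.21.

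The squamous barrier programme was the most widely changed group, and every called gene of its 4 lists was lower in the knockout line. The cornified envelope is a shell of cross-linked proteins that replaces the plasma membrane of dying squamous cells, and late cornified envelope (Lce) and small proline-rich (Sprr) proteins are its building blocks. Of 15 measured Lce genes, 10 fell and none rose (median -1.59), and of 9 measured Sprr genes, 5 fell and none rose (median -1.63). Of 40 measured barrier proteins and their processing enzymes, 25 fell and none rose (median -1.56). Squamous and suprabasal keratins had 6 of 15 lower and none higher (median -0.85). For comparison, 2.98% of all genes were called lower. Without wild-type replicate 3 the falls numbered 10, 5, 24 and 6 in the same order of lists.

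Lce3a read 11.96, 11.67 and 11.60 on wild-type against 6.52, 6.52 and 6.44 on knockout arrays, a difference of -5.25 ± 0.10 (limma adjusted p = 4.73e-11). Lce3f read 10.94, 10.75 and 10.78 against 6.92, 7.01 and 6.85. For both genes the knockout arrays were close to each other and above the floor. Lce3c was less even, at 11.06, 9.75 and 10.32 in the wild-type line against 8.10, 8.06 and 8.19, with wild-type replicate 1 the highest. The Lce1 genes fell as well: Lce1d (-3.43), Lce1f (-2.72, and -1.50 as the average of its probe sets) and, to background, Lce1c, which was at least 2.94-fold lower. Lce1h was not called (-0.02), at means of 9.0 and 8.99, and Lce1i differed by -0.64. Of the 15 genes, 3 were under the floor on all 6 arrays. Lce and Sprr genes are families of similar copies, and whether probe sets read more than 1 copy was not tested.

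Sprr1b, which is induced early in squamous differentiation, read 10.71, 10.24 and 10.12 against 5.56, 5.37 and 5.64 (-4.84 ± 0.14). Sprr1a read 12.70, 12.50 and 12.36 against 9.77, 10.73 and 10.08 (-2.33 ± 0.22), so it fell but stayed well above the floor. Sprr3, of oesophageal and airway squamous cells, read 10.44, 10.06 and 9.997 against 7.45, 8.68 and 8.0, with knockout replicate 2 the highest of its line in this gene and in Sprr1a. Sprr2i and the pseudogene Sprr2j-ps fell too (-1.64 and -2.70). Sprr2d lay the other way, 9.48, 8.82 and 8.98 against 9.51, 10.34 and 10.15 (0.90 ± 0.21, limma adjusted p = 0.00945), and was not called, although it was called higher without wild-type replicate 1 (1.10) or knockout replicate 1 (1.15). Sprr2h differed by -0.40.

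Among the barrier proteins, Krtdap, a secreted product of differentiating keratinocytes, read 12.19, 11.54 and 12.04 against 5.79, 6.20 and 5.96. Dapl1 and Capns2, the small subunit of a calpain protease, fell as far (-5.60 and -5.33). Hrnr, a filaggrin-like envelope protein, was at least 6.53-fold lower. Asprv1, the protease that processes filaggrin, read 11.23, 10.76 and 10.66 against 6.59, 7.03 and 7.10, and Rptn, another filaggrin relative, fell by 3.81 ± 0.21, with an average over its probe sets of -1.30. The cross-linking enzymes fell together with their substrates, Tgm3 (-3.38 ± 0.15) and Tgm1 (-1.94 ± 0.21), as did the lipoxygenase Alox12b (-3.65) and the corneodesmosome protein Cdsn (-3.62). These 4 were named after their values were seen. The brightest members that were not called were Dmkn (-0.56) and Ly6d (-0.77), both lower by less than 2-fold.

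Of the squamous keratin list, Krt1 fell furthest. Krt1, the keratin of the first suprabasal layer of skin, read 10.79, 10.31 and 10.20 against 6.29, 6.25 and 6.22 (-4.18 ± 0.14, limma adjusted p = 2.43e-09). Krt76 and Krt4, of oral and oesophageal suprabasal cells, fell (-2.97 and -2.19), as did Krt78 (-2.09) and Krt80 (-1.51). Krt16, a keratin of activated keratinocytes, went from 13.44, 12.94 and 12.92 to 11.49, 11.68 and 11.64. Krt6a, which partners it, did not follow (0.02, adjusted p = 0.943), and Krt6b differed by -0.60. Both lines kept a very high signal of the basal keratins Krt5 (14.46 against 14.38) and, picked after its value was seen, Krt14 (14.52 against 14.68).

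Most Lce, Sprr and filaggrin-type genes lie side by side on chromosome 3 in the epidermal differentiation complex, whose ends are marked by S100 genes. From S100a1 to S100a10, 49 genes were measured, of which 23 fell and 1 rose (median -0.48). Of all genes, 2.98% were called lower and 1.9% higher. The falls here include the 10 Lce, the 5 Sprr and several of the barrier genes already counted above. The rise was S100a1 itself, a calcium-binding protein at the edge of the complex (1.29 ± 0.16), and it was under 2-fold (0.97) without probe sets that may cross-hybridise. Along the chromosome the falls began at Lor, the major envelope protein loricrin (-1.80), and ended at Tchh, trichohyalin (-1.68). Between them lay runs of adjacent measured genes that were all called lower, 6 from Lce1a1 to Lce1f, 5 from Lce3a to Crct1, 4 from Sprr1b to Ivl and 4 from Flg to Tchh. Kprp, a keratinocyte proline-rich protein, fell alone between uncalled neighbours (-1.39). The call of Ivl, involucrin, rested on its brighter probe set, and the mean of its probe sets was -0.73. At the edges, the brightest S100 genes that were not called were S100a6 (0.23) and S100a10 (0.82), and S100a10 was called higher by the mean of its probe sets (1.06).

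**Figure D3:**
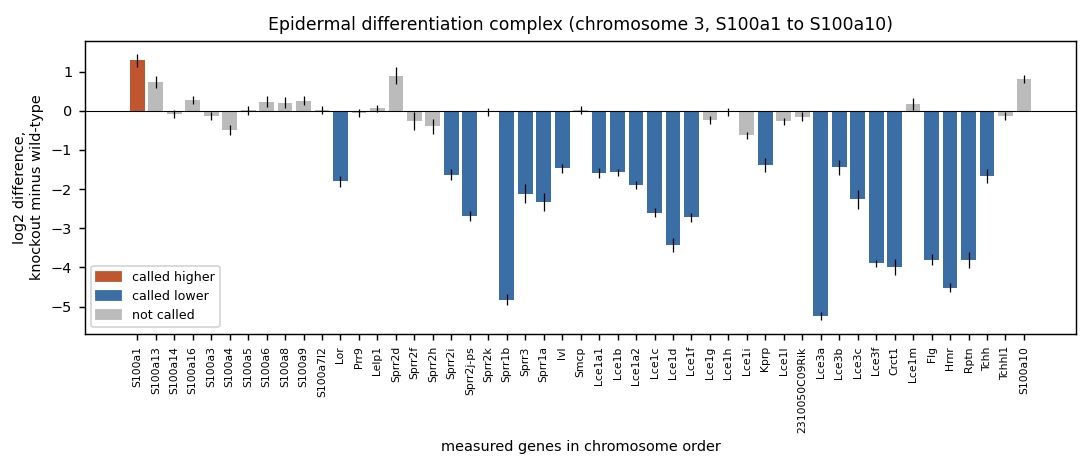
Bars give the log2 difference, knockout minus wild-type, of the 49 measured genes of the epidermal differentiation complex in chromosome order, with the standard error of the fit. The 23 called falls (blue) form blocks in the Sprr, Lce and filaggrin parts, while among the S100 genes at both ends only S100a1 was called higher (orange), and not without probe sets that may cross-hybridise.

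Transcription factors of airway and squamous epithelium were mostly not called, and most of those that were fell. Of 43 measured, 9 were lower and 1 higher (median -0.13), or 23.3% called against 4.88% of all genes. Grhl1 and Grhl3, grainyhead factors that drive barrier genes in skin, read 10.80, 10.78 and 10.72 against 8.23, 9.22 and 8.48 and 10.70, 10.87 and 10.57 against 8.80, 9.28 and 8.91. In both, knockout replicate 2 was the highest of its line but stayed below the wild-type arrays. Pax9, a factor of oral and tracheal epithelium, fell by 2.10 ± 0.11. Foxa1, a pioneer factor of endoderm, fell by 1.96 ± 0.09, and Id2, an inhibitor of basic helix-loop-helix factors, fell by 3.21 ± 0.14, with an average over its probe sets of -1.86. Twist1, a mesenchymal factor, was the 1 that rose, from background to 6.15, 6.84 and 6.62, at least 2.61-fold. Sox4 (0.53) and Klf5 (-0.16), the brightest not called, differed by less than 2-fold.

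Both lines, which the submitters call lung epithelial cells, had their highest summed marker signal in the basal cell list. The summed signal of 18 basal markers was 16.56 to 16.63 on wild-type and 16.49 to 16.52 on knockout arrays, and Krt5 and Itga6 were not called. Within that list 6 fell and none rose (median -0.17), against 2.98% of all genes called lower. When wild-type replicate 1 was left out, 2 of the list were called higher. Pdpn, podoplanin, a membrane glycoprotein of basal cells, had the largest fall, from 9.91, 10.15 and 10.10 to 6.43, 6.29 and 6.26. Dsc3, a desmosomal cadherin of basal layers, read 12.01, 12.22 and 12.35 against 9.63, 9.62 and 9.75. The adhesion molecule Icam1 (-1.82), the water and glycerol channel Aqp3 (-1.51) and the transcription factor Bcl11b (-1.06) also fell, the last not called after quantile normalization (-1.0). Trp63, the gene of p63, went from 12.08, 12.08 and 11.996 to 10.40, 10.92 and 10.75 on its brightest probe set, but the mean of its probe sets was -0.67 and not called.

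The summed signal of 23 secretory cell markers was the second highest, at up to 14.93 on wild-type and up to 15.24 on knockout arrays, without overlap. Sums are ruled by their brightest members, and 5 of the 23 lay under the floor in each line. Of all single genes, 39.1% did not overlap between the lines. The part of secretory cells in the results was not tested. These markers had 1 rise, Ltf, and 1 fall, Selenbp1 (-1.20, -0.95 without knockout replicate 1 and -1.99 without probe sets that may cross-hybridise). Without wild-type or knockout replicate 1 a further marker, Cbr2, was called higher (1.01 in both). It too was picked after its values were seen. The club cell secretoglobin Scgb1a1 lay under the floor in both lines (4.85 and 4.93). It and the defining markers Ptprc, Foxj1, Sftpc and Cnn1 below were picked after their values were seen. The 16 ciliated, 14 leukocyte, 12 endothelial and 10 cartilage markers had 0 called by limma, with 3, 3, 2 and 3 of them at an unadjusted p under 0.05. With only 4.88% of all genes called, 0 in lists this short does not show that they were unchanged. Nor do the counts at an unadjusted p show a change, since 4109 of all 18193 genes passed even the adjusted p. Ptprc, which marks all leukocytes, was under the floor on average in both lines (4.48 and 4.41), and Foxj1, the master factor of ciliated cells, was dim (6.45 and 6.77). Alveolar and lung lineage markers had Foxa1 lower and Cebpa higher (1.15) of 17, with the surfactant gene Sftpc at 5.79 and 5.74. Fibroblast markers had only Twist1 called of 19, and their summed signal overlapped between the lines, at 12.37 to 12.75 and 12.26 to 12.57. Of 10 neuroendocrine and tuft cell markers only Sncg was called, and their sum was 9.04 to 9.1 on wild-type and 10.64 to 10.84 on knockout arrays. Sums were also apart for alveolar and lung lineage (13.11 to 13.24 against 12.91 to 12.93), cartilage (9.45 to 9.56 against 9.67 to 9.83) and endothelial markers (9.66 to 9.79 against 9.85 to 9.91). Those of ciliated and leukocyte markers overlapped. Smooth muscle markers were summed to 11.68 to 11.99 on wild-type and 10.75 to 10.76 on knockout arrays, with Acta2 (-1.41) and Smtn (-1.10) lower of 10. Acta2 was not called when its probe sets were averaged (-0.50) or when those that may cross-hybridise were dropped (-0.13), and Smtn not without wild-type replicate 1 (-0.94), while the smooth muscle gene Cnn1 read 5.12 and 5.34. In bulk RNA, fewer cells of a type and less RNA per cell cannot be told apart, and the part of such cells in the results was not tested.

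Simple epithelial keratins, of glandular and airway surface cells, moved in both directions. Krt19 read 10.21, 10.19 and 10.26 against 5.41, 5.52 and 5.02 (-4.90 ± 0.13), near background in the knockout line. Krt23 fell from 10.27, 10.21 and 9.97 to 7.0, 6.42 and 6.54. Krt18 went the other way, from 8.18, 8.10 and 7.83 to 10.37, 10.90 and 10.48 (2.55 ± 0.14, limma adjusted p = 1.24e-07). Its pairing partner Krt8 differed by 0.98 ± 0.10, just under 2-fold, and passed 2-fold without wild-type replicate 3 (1.03) or knockout replicate 3 (1.02), and Krt7 by 0.52. Of 6 measured keratins of this kind, 2 fell and 1 rose (50% called, against 4.88% of all genes).

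Desmosomal cadherins changed in both directions. Desmosomes join neighbouring epithelial cells through cadherins whose isoforms differ between layers. Dsg1a, of upper squamous layers, read 9.16, 8.81 and 9.08 against 4.71, 4.69 and 4.70 and was at least 14.6-fold lower. Dsc1, its suprabasal partner, fell by 3.23 ± 0.17 and Dsc3 fell by 2.52 ± 0.13, whereas Dsg2 rose by 3.89 ± 0.10. These 4 were the called members of 11 (36.4%, against 4.88% of all genes). The plaque protein Dsp (-0.16) and the desmosomal membrane protein Perp (limma adjusted p = 0.999) were not called. Dsc1, Dsg1a and Dsg1b are adjacent measured genes on chromosome 18, and all 3 were called lower.

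Anchorage to the basement membrane changed at its collagens. Col7a1, which forms the anchoring fibrils, read 12.16, 11.71 and 11.80 against 9.18, 8.69 and 8.68 (-3.04 ± 0.16). The basement membrane collagens Col4a1 and Col4a2, which share a promoter region, fell from 12.06, 12.10 and 11.53 to 9.48, 9.48 and 9.49 and from 10.83, 10.71 and 10.58 to 9.31, 9.33 and 9.32. These 3 were the called members of 17 measured (17.6%, against 4.88% of all genes), and 1 more was called higher without wild-type replicate 1. The hemidesmosomal integrin Itga6 (-0.35) and tetraspanin Cd151 (0.01) were not called. None of 19 integrin subunits was called by limma, against 4.88% of all genes. Of the 19, 6 had an unadjusted p under 0.05, while 4109 of all 18193 genes passed even the adjusted p. Without wild-type replicate 1, 1 integrin subunit was called higher. Tight and adherens junction genes had 3 higher and 1 lower of 20 (20% called). Cldn7 rose by 2.12 ± 0.11, Cldn23 by 1.73 ± 0.17 and Cldn1 by 1.20 ± 0.19, and Cldn8 fell by 1.81 ± 0.16. Without wild-type replicate 1, 5 were called higher. Cldn1 was not called as the average of its probe sets (0.29) or without knockout replicate 2 (0.95). E-cadherin, Cdh1, was not called (-0.26).

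Of 46 matrix genes 10 were lower and 1 higher (median -0.16), or 23.9% called against 4.88% of all genes. Sparc, a matricellular glycoprotein, read 10.69, 10.55 and 10.08 against 7.68, 7.12 and 6.67, and Lox, which cross-links collagen, fell by 2.12 ± 0.13, with an average over its probe sets of -1.39. The Wnt-induced Ccn4 (-1.95 ± 0.15) and the proteoglycan Gpc3 (-1.94 ± 0.11) fell too. Thbs1, thrombospondin, was the rise, from 8.34, 7.51 and 7.66 to 9.96, 9.52 and 9.36. Among 36 proteases of matrix and plasminogen and their inhibitors, 3 were higher and 4 lower (19.4% called). The squamous serine protease Tmprss11a read 9.96, 9.74 and 9.96 against 4.94, 5.92 and 5.13, with knockout replicate 2 the highest of its line. Timp3, a matrix-bound inhibitor of metalloproteinases, rose from 6.35, 6.36 and 6.61 to 9.40, 10.06 and 9.49, by all 4 of its probe sets. Adamts1 fell by 2.34 ± 0.09 and Mmp2 fell by 1.92 ± 0.16, and Adam12 and Adam8 rose by 1.40 and 1.19.

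Cathepsins and their inhibitors had 30.4% of 23 members called, against 4.88% of all genes, and the calls were split by role. The 2 rises of 23 were the proteases Ctsz and Ctse, the latter by 1.43 and named after its value was seen, and the 5 falls were inhibitors. When probe sets were averaged, or those that may cross-hybridise were left out, 1 was called higher. Serpinb3a, a squamous cell serpin, read 9.25, 8.95 and 9.10 against 5.79, 5.89 and 5.61. Csta1, a stefin of the cornified envelope, fell by 3.27 ± 0.14, as did the cystatins Cst6 (-1.81) and Cst3 (-1.78), and Stfa3 was at background and at least 1.74-fold lower. Cstb (0.39) and the protease Ctsl (-0.09) were not called.

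**Figure D4:**
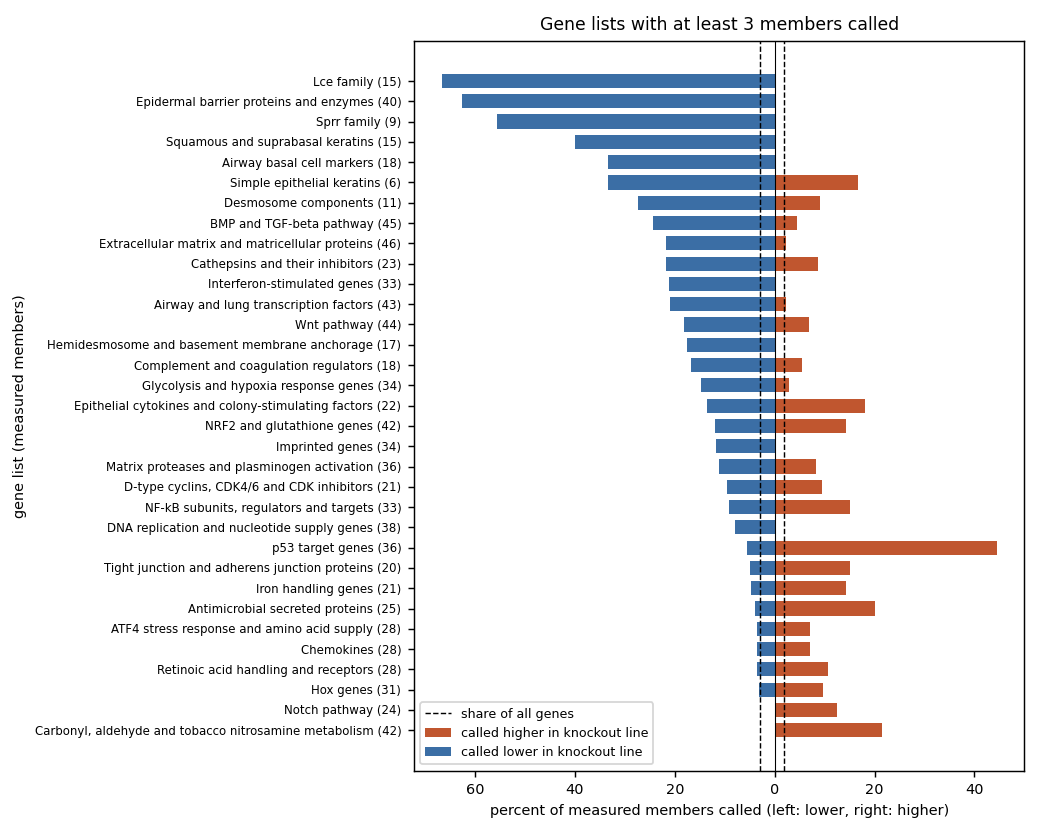
Bars give the percent of measured members called lower (left, blue) and higher (right, orange) in the knockout line for each list with at least 3 members called, with the number measured in brackets; dashed lines mark the shares of all genes, 2.98% lower and 1.9% higher. The barrier lists extend furthest to the left, with 10 of 15 Lce genes lower, and the p53 target list furthest to the right, with 16 of 36 higher; lists share some members.

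The combined list of bone morphogenetic protein (BMP) and TGF-beta pathway genes had the largest share called among the growth lists. It was 28.9%, against 25% of Wnt pathway genes and 4.88% of all genes. BMPs are secreted ligands that act through Smad proteins, and the Id genes are among their direct targets. Of 45 measured genes of the BMP and TGF-beta pathways 11 fell and 2 rose (median -0.27). Among ligands, Bmp2 read 9.94, 10.10 and 9.80 against 6.58, 6.30 and 6.56 (-3.47 ± 0.15, limma adjusted p = 2.71e-08), while Bmp4 (1.29) and the activin subunit Inhbb (1.58) rose. The receptor Bmpr1b fell by 2.43 and the inhibitory Smad6 fell by 2.03. These last 4 were named after their values were seen. All 4 Id genes fell: Id3 read 10.64, 10.37 and 10.45 against 6.85, 6.67 and 6.96, Id2 9.59, 9.62 and 9.87 against 6.26, 6.64 and 6.54 and Id4 10.98, 11.04 and 11.08 against 8.47, 8.81 and 8.26, and Id1, also named after its value was seen, fell by 1.08. The secreted antagonists Sostdc1 and Fstl1 fell furthest. The receptor gene Tgfbr2 (0.72) and the corepressor Skil (0.58) were not called.

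Wnt pathway genes had 8 lower and 3 higher of 44 (median -0.04), and only 1 higher without knockout replicate 3. The 3 rises, named after their values were seen, were the ligand Wnt9a (1.03), Porcn, which lipidates Wnts (1.06), and the extracellular Wnt inhibitor Notum (1.13). Frizzleds, the receptors of Wnt ligands, contributed Fzd6, from 11.99, 12.55 and 12.25 to 10.27, 10.38 and 10.27, with Fzd3 (-1.59) and Fzd7 (-1.19), and the R-spondin receptor Lgr4 fell by 1.13. The ligand Wnt4 read 12.51, 12.21 and 12.16 against 10.76, 10.63 and 10.67. Averaged over their probe sets, Fzd6 differed by -1.19, and Fzd3 (-0.74), Fzd7 (-0.56) and Lgr4 (-0.76) were under 2-fold. Wnt7b (0.52) and Fzd1 (0.04) were not called. Notch pathway genes had 3 higher and none lower of 24 (12.5% called, against 4.88% of all genes). The Notch modulator Dtx4 rose from 8.41, 8.08 and 8.18 to 10.88, 10.54 and 10.57, the ligand Dll1 by 1.20 ± 0.08 and the receptor Notch1 by 1.17 ± 0.10. The ligand Jag1 (-0.33) and the feedback gene Nrarp (-0.29) were not called.

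Insulin-like growth factor genes had only their binding proteins called, Igfbp2 and Igfbp7, of 19 measured. This and the other lists of this paragraph had 6.25% to 10.5% of their members called, against 4.88% of all genes. With 1 or 2 calls each, they describe single genes and not whole pathways. Igfbp7 read 11.09, 10.79 and 11.01 against 6.60, 5.52 and 6.32 (-4.81 ± 0.22, and -1.83 as the average of its 3 probe sets), with knockout replicate 2 the lowest, and Igfbp3 was not called (-0.44). Of 16 ErbB receptors and ligands only the ligand Nrg1 was called (1.78 ± 0.13), from 5.61, 5.90 and 5.98 to 7.48, 7.56 and 7.78. Output genes of Ras and MAPK signalling had 2 of 19 lower, the phosphatase Dusp1 (-1.31) and Spred1 (-1.05), the latter under 2-fold by the mean of its probe sets (-0.77), after quantile normalization (-0.99) and without wild-type replicate 2 (-0.86) or knockout replicate 3 (-0.97). Among 23 immediate early factors Nr4a2 (-1.71, and -0.62 by the mean of its probe sets) and Klf4 (-1.25), a factor of terminal squamous differentiation, fell. Of 19 YAP pathway genes the partner factor Tead2 (-1.52) and the target F3, tissue factor (-1.17), fell. STAT3 pathway genes had the cytokine Lif (1.31) and the oncostatin receptor Osmr (1.06, and 1.0 without wild-type replicate 2) higher of 19, and neither was called by the mean of its probe sets (0.73 and 0.56).

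Targets of p53, the damage-activated transcription factor, stood highest of the lists on the rising side: 16 of 36 measured rose and 2 fell (median 0.75), against 1.9% of all genes called higher. Eda2r, a death-domain receptor, read 5.18, 5.74 and 5.54 against 8.64, 8.85 and 8.51 (3.18 ± 0.15, limma adjusted p = 5.01e-08). Psrc1, a spindle protein, rose from 7.23, 7.73 and 7.55 to 10.39, 10.25 and 10.29. Zmat3, an RNA-binding tumour suppressor, read 8.32, 8.43 and 8.34 against 11.13, 11.25 and 10.90, and Ccng1, cyclin G1, 10.33, 10.25 and 10.50 against 12.41, 12.51 and 12.60. Averaged over its probe sets, Psrc1 rose by 1.52. The death receptor Fas rose by 1.88 ± 0.11 and cyclin D1, Ccnd1, by 2.22 ± 0.12. The canonical targets Mdm2 and Cdkn1a rose by 1.16 ± 0.11 and 1.49 ± 0.10; Mdm2 was named after its value was seen. Gadd45a and Pltp, the 2 that fell (-1.16 and -1.45), were likewise named as the remaining called members in that direction. Perp and Rps27l (0.53) were not called. Without wild-type replicate 3 the list had 15 higher and 2 lower. The BCL2 family of apoptosis regulators had 2 of 15 lower, Bnip3 (-1.50) and Bmf (-1.34), against 2.98% of all genes called lower. Bmf rested on a probe set that may cross-hybridise, without which its difference was 0.03.

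Cell-cycle regulators had 4 of 21 called among D-type cyclins, their kinases and CDK inhibitors (19%, against 4.88% of all genes). Ccnd1 and the inhibitor Cdkn1a rose, and the inhibitors Cdkn2a, which encodes p16 and p19Arf, and Cdkn1c fell. Cdkn2a read 9.07, 8.99 and 8.52 against 6.86, 7.03 and 6.82, and Cdkn1a 11.45, 11.48 and 11.38 against 12.90, 13.08 and 12.82. Cdkn1c (-1.03) was not called without wild-type replicate 1 (-0.94) or knockout replicate 1 (-0.90). Of 38 replication genes, 3 were called (7.89%): Rrm2 (-1.56), which supplies deoxynucleotides, the helicase subunit Mcm5 (-1.16, and -0.79 by the mean of its probe sets) and the licensing factor Cdc6 (-1.07) fell (median -0.22), and Pcna was not called (-0.15). None of 41 mitosis genes was called by limma (median -0.10). Of the 41, 16 had an unadjusted p under 0.05, while 4109 of all 18193 genes passed even the adjusted p.

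Interferon-stimulated genes, many of which restrict viruses, had 7 of 33 measured lower and none higher (median -0.39), against 2.98% of all genes called lower. To show the regulatory sequence this group is known for, the 250 bases upstream of the RefSeq start (GRCm38.p6) are given for Ifit1 (chr19:34640639-34640888, plus strand), Rsad2 (chr12:26456453-26456702, minus strand) and Ifit3 (chr19:34583279-34583528, plus strand), written 5' to 3' on the gene's strand. They are the 2 called members with a match and, chosen after its value was seen, 1 uncalled member with 2 matches. Capitals mark matches to the core of the interferon response element (GAAA, any 2 bases, GAAA), which in all of these windows lies on the opposite strand, so its reverse complement appears.
Ifit1: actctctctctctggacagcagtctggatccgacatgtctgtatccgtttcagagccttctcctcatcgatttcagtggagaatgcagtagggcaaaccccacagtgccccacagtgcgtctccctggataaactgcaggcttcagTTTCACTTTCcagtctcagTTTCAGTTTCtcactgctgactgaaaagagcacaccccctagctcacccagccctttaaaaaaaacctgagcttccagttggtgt
Rsad2: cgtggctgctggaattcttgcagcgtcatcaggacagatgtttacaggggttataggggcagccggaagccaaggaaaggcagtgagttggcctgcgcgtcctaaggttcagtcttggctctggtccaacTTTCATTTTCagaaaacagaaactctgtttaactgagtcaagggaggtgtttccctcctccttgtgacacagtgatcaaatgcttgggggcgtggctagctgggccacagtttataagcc
Ifit3: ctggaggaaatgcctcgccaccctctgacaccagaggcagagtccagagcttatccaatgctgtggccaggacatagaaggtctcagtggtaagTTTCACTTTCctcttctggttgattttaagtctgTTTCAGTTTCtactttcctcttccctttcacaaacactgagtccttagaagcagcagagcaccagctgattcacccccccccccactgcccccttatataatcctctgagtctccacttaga

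Both strands of the 250 bases before to 50 bases after each start were searched for this core, and overlapping matches were counted separately. The element was found in 3.02% of the promoters of 14452 measured genes with an entry, in 5.04% of those called higher and in 4.12% of those called lower. It was found in 13 of 24 promoters of the interferon list (54.2%). Members with and without it had nearly the same median difference, -0.39 for 13 genes of which 2 fell and -0.38 for 11 genes of which 3 fell. A match is a stretch of letters and not a measured binding site.

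Ifit1, an RNA-binding antiviral protein, read 9.995, 10.32 and 9.95 against 8.37, 7.43 and 7.30 (-2.39 ± 0.23, limma adjusted p = 1.61e-05), and knockout replicate 1 was the highest of its line. Rsad2, viperin, read 8.88, 9.09 and 8.80 against 7.82, 7.44 and 7.32 with the same order among knockout arrays. Ifit3, with its 2 matches, differed by -0.83 ± 0.09 and was not called. Oasl2, of the 2'-5' oligoadenylate synthetase family, was at background in the knockout line and at least 3.63-fold lower. Ifi27 read 11.20, 11.21 and 11.40 against 9.36, 9.30 and 9.36, Usp18, which removes ISG15 from proteins, fell by 1.72 ± 0.11, and Xaf1 fell by 1.83 ± 0.15, with -0.64 by the mean of its probe sets. Trim25, a ubiquitin ligase of antiviral signalling, was not called (-0.38). Ifitm3, a membrane protein that blocks virus entry, lay the other way (0.96 ± 0.12, limma adjusted p = 1.14e-04) and was called higher without wild-type replicate 2 (1.04). None of 15 genes of MHC class I presentation was called by limma (median -0.25), against 4.88% of all genes. Of the 15, 10 had an unadjusted p under 0.05, while 4109 of all 18193 genes passed even the adjusted p. H2-D1 differed by 0.54 and the chaperone Calr by -0.31. Of 8 ligands of natural killer cell receptors H60c fell and Clec2d rose (2.18 ± 0.17), from 7.61, 7.19 and 7.74 to 9.40, 9.89 and 9.77.

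Inflammatory genes moved in both directions. NF-kB subunits, regulators and targets had 5 higher and 3 lower of 33 (median 0.14), or 24.2% called against 4.88% of all genes. Beside Cxcl5 and Lcn2, Csf1, the macrophage growth factor, rose from 7.63, 7.61 and 7.56 to 9.72, 10.10 and 9.79 and the NF-kB cofactor Nfkbiz by 1.36 ± 0.12. Icam1 read 8.74, 8.82 and 8.79 against 6.84, 6.98 and 7.05, and Ptgs2, the inducible cyclooxygenase, fell by 1.33 ± 0.14. The inhibitor Nfkbia (0.05) and the subunit Rela (0.31) were not called. Among 28 chemokines (10.7% called) Cxcl5 and Ccl28, a mucosal attractant (6.93, 7.11 and 7.19 against 9.23, 10.33 and 9.87), rose. Ppbp, a neutrophil-attracting chemokine best known from platelets, fell from 11.27, 11.26 and 11.17 to 6.81, 7.21 and 7.07 (-4.21 ± 0.11). Cxcl1 was not called by its brightest probe set (0.44, adjusted p = 0.114), which may cross-hybridise, and was called higher without it (2.20). Its other 2 probe sets were both called higher.

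Of 22 epithelial cytokines and colony-stimulating factors, 4 were higher and 3 lower (31.8% called, against 4.88% of all genes). Tslp and Il33, the alarmins that start type 2 immune responses, both fell: Tslp read 10.39, 10.29 and 10.14 against 6.95, 8.10 and 7.89, with knockout replicate 1 the lowest, and Il33 6.83, 6.63 and 7.04 against 5.15, 5.10 and 5.24, the knockout values at the edge of background. Il1f6, an IL-36 cytokine of squamous epithelium, fell by 1.25 ± 0.09. The colony-stimulating factors Csf1 and Csf3 rose, Csf3 from 6.79, 6.65 and 6.85 to 8.19, 8.38 and 8.20, as did Lif. Il18 (-0.46) and Il1a (0.68) were not called. Antimicrobial proteins had 5 of 25 higher (24% called in either direction): Lcn2, Ltf, the beta-defensin Defb1 (1.74 ± 0.14), Wfdc18 (1.18) and Saa3 (1.04). The 1 called lower, Defb4, lay under the floor on all 6 arrays and has no interpretable fold. The count of lower members was 2 without wild-type replicate 2 or knockout replicate 3 and 0 without wild-type replicate 3. Saa3 was under 2-fold without wild-type replicate 2 (0.99), knockout replicate 2 (0.93) or knockout replicate 3 (1.0). Slpi (-0.40) and Wfdc2 (0.79) were not called. Among 18 complement and coagulation regulators (22.2% called) Cd55, which protects cells from complement, rose (2.07 ± 0.13). C1qtnf3, thrombomodulin Thbd (-1.75) and F3 fell.

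Enzymes that handle carbonyls, aldehydes and tobacco nitrosamines had 9 of 42 higher and none lower (median 0.14), against 1.9% of all genes called higher. Cells use them to detoxify reactive aldehydes and to reduce or hydroxylate compounds such as NNK. Aldh1a7, a close relative of Aldh1a1, read 6.25, 6.88 and 6.88 against 9.26, 10.13 and 9.73 (3.04 ± 0.24, limma adjusted p = 2.89e-06), with knockout replicate 1 the lowest, as in Aldh1a1. Aldh3a1, the abundant aldehyde dehydrogenase of cornea and airway, rose from an already high 10.17, 10.10 and 10.26 to 11.90, 12.53 and 11.97. Akr1c13, an aldo-keto reductase, was at least 16.8-fold higher, and the cytochrome P450 Cyp3a13 rose by 1.96 ± 0.10. Akr1a1 (-0.61) and Adh5 (0.17) were not called. Aldh1a1 and Aldh1a7 lie in the same part of chromosome 19 and have similar sequences, and shared hybridisation between them was not tested.

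Retinoid genes had 3 higher and 1 lower of 28 (14.3% called, against 4.88% of all genes). Those higher were Aldh1a1, Aldh1a7 and Rdh10, which oxidises retinol and read 8.67, 8.79 and 8.68 against 10.12, 10.95 and 10.65. Rbp2, a cellular retinol-binding protein, fell by 1.14 ± 0.18, though not without wild-type replicate 1 (-0.88). The binding protein gene Fabp5 (-0.50) and the reductase Rdh11 (-0.44) were not called.

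Glutathione and NRF2-regulated genes had 6 higher and 5 lower of 42 (26.2% called, against 4.88% of all genes). The glutathione transferases were split between classes and, in the alpha class, inside it. Gpx2, the epithelial glutathione peroxidase, read 10.76, 10.63 and 10.59 against 7.53, 7.55 and 7.66 (-3.08 ± 0.10). The mu-class transferases Gstm1 and Gstm2 fell, Gstm1 from 10.51, 10.41 and 10.45 to 7.77, 8.01 and 7.77 and Gstm2 with a difference of -2.41 ± 0.11. The alpha-class Gsta3 and the theta-class Gstt3 rose, Gsta3 from 9.14, 8.77 and 8.97 to 11.11, 11.34 and 11.50 and Gstt3 by 2.55 ± 0.11. Gsta2, also of the alpha class and picked after its value was seen, fell (-1.26). Mgst1, a microsomal transferase, rose by 1.94 ± 0.11 on its brightest probe set and by 0.98 as the mean of its probe sets. The omega-class Gsto1 (0.11) and thioredoxin Txn1 (0.60) were not called.

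Iron-handling genes had 3 higher and 1 lower of 21 (19% called, against 4.88% of all genes). Cp, ceruloplasmin, the copper oxidase that loads iron onto transferrin, read 6.12, 6.48 and 6.57 against 9.22, 9.72 and 9.29 (3.02 ± 0.17), beside the iron-binding Lcn2 and Ltf. The iron exporter Slc40a1 fell by 1.09 ± 0.12, and the ferritin chain Fth1 differed by 0.86. Glycolysis and hypoxia genes had 5 lower and 1 higher of 34 (median -0.27, 17.6% called). Hexokinase Hk2 read 9.84, 9.79 and 9.84 against 7.89, 8.17 and 7.51, and the aldolase Aldoc fell by 1.32. Ndrg1 (-1.29) and Slc2a1, which carries glucose into cells (-1.18), were lower too. Pfkfb3 rose by 1.46, or 0.92 as the mean of its probe sets. Promoters of the glycolysis and hypoxia list held the hypoxia response core ACGTG, on either strand, in 18 of 32 cases (56.2%). The share was 23.2% of all promoters searched. This describes the members of the list and not their change. Scd1 was the only 1 of 25 genes of cholesterol and fatty acid synthesis that was called (4%, against 4.88% of all genes). The list median was -0.28, and the Scd1 paralogue Scd2 was not called (-0.02). Of 28 ATF4 stress and amino acid genes (10.7% called), the transporter Slc7a5 fell (-1.38 ± 0.10) and Nupr1 (1.20) and Slc7a11 (1.07) rose. Slc7a11, the cystine transporter, was not called without wild-type replicate 3 (0.92), knockout replicate 2 (0.93) or knockout replicate 3 (0.96), or by the mean of its probe sets (0.59).

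Hox genes, which record position along the body, had 3 higher and 1 lower of 31 (12.9% called, against 4.88% of all genes). Hoxc4 read 5.82, 5.84 and 6.19 against 9.04, 8.85 and 9.19 (3.07 ± 0.12, limma adjusted p = 9.33e-09). Hoxd8 went from 5.44, 5.50 and 5.52 to 7.62, 7.22 and 7.21 and Hoxb2 rose by 1.69 ± 0.15 (5 Hox genes were called higher when probe sets were averaged), while Hoxa2 fell by 1.63 ± 0.11. Hoxa5 (0.09), a lung Hox gene, and Hoxa9 (0.19) were not called. Imprinted genes had 4 of 34 lower and none higher (11.8% called). Among the imprinted genes, 1 was called higher when probe sets were averaged or those that may cross-hybridise were left out. Peg3, a paternally expressed zinc-finger gene, read 11.69, 10.86 and 10.28 against 6.19, 6.61 and 6.11 (-4.64 ± 0.28), and its wild-type arrays spread over more than 1 log2. Ascl2 (-1.15, and -2.23 without probe sets that may cross-hybridise), Sgce (-1.12) and Cdkn1c fell less, and Sgce was not called without knockout replicate 1 (-0.95) or by the mean of its probe sets (-0.63).

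Differences were also followed along whole chromosomes, the epidermal complex included. Genes were placed in chromosome order and the median difference of 31 neighbours was followed along each chromosome, among the 7593 genes with a mean of at least 8 log2 in the brighter line. Stretches of at least 20 genes whose running median passed 0.3 in size were noted; this way of looking was chosen after the data were seen. There were 19 such stretches. They held 2219 measured genes, of which 8.79% were called, against 4.34% of the 15912 positioned genes outside them, a gap that the choice of stretches by these same differences fixes. Leaving out the genes of the stretches, 693 genes were called, 271 higher and 422 lower.

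At the near end of chromosome 3, from Pex2 to Rap2b, 80 of 87 genes were higher in the knockout line, with a median of 0.81. The median signal over the stretch, after centring each gene, was -0.40, -0.42 and -0.34 on the wild-type and 0.41, 0.41 and 0.40 on the knockout arrays. Of all 213 measured genes inside, 33 rose and 1 fell (16% called). Cp and Zmat3, named above, and the cytokine Il7 (2.83, picked after its value was seen) were its largest rises. On chromosome 4, 31 genes from Ptbp3 to Dennd4c had a median of 0.81, with 23 above 0. Further along came a long stretch from Cdkn2b to Noc2l, where 278 of 293 genes were lower, with a median of -0.61. The centred medians there were 0.31 on each wild-type array and -0.30, -0.28 and -0.32 on the knockout arrays. Of the 706 measured genes inside, 52 fell and 2 rose (7.65% called). The largest falls were Edn2, endothelin 2 (-4.06, picked after its value was seen), Pdpn and Id3, and Wnt4 and Grhl3 lie there too.

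Smaller shifts ran along most of chromosomes 19 and 8 among the genes used, those of at least 8 log2. On chromosome 19, 83.4% of these were higher in the knockout line (median 0.32, but 0.126 over all 611 measured genes). Aldh1a1 and Aldh1a7 lie there inside a stretch from Osbp to Pcgf5 that also held 9 falls among its 18 called genes. On chromosome 8, 16% of the genes used were higher (median -0.31, but -0.118 over all 940 measured genes), with Col4a1, Col4a2 and Capns2 in its stretches. The median of all genes used was -0.072. With the level limit lowered to 6, 11 stretches were found. The genes from Pex2 to Rap2b then had a median of 0.64 and those from Cdkn2b to Noc2l -0.39, the latter broken into 5 stretches. Chromosomes 8 and 19 were left with 1 stretch each, in place of 6 and 4, and Ptbp3 to Dennd4c had a median of 0.20 and was no longer found. Of the called genes with a position, 195 lay inside stretches and 690 outside. The called Lce and Sprr genes lay in the stretch from Sprr2f to Pip5k1a, which their own falls helped to define. All 3 called basement membrane genes, 2 of the 18 called p53 targets and 1 of the 7 called interferon-stimulated genes lay inside stretches. What the genes of a stretch have in common beyond their place was not tested.

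**Figure D5:**
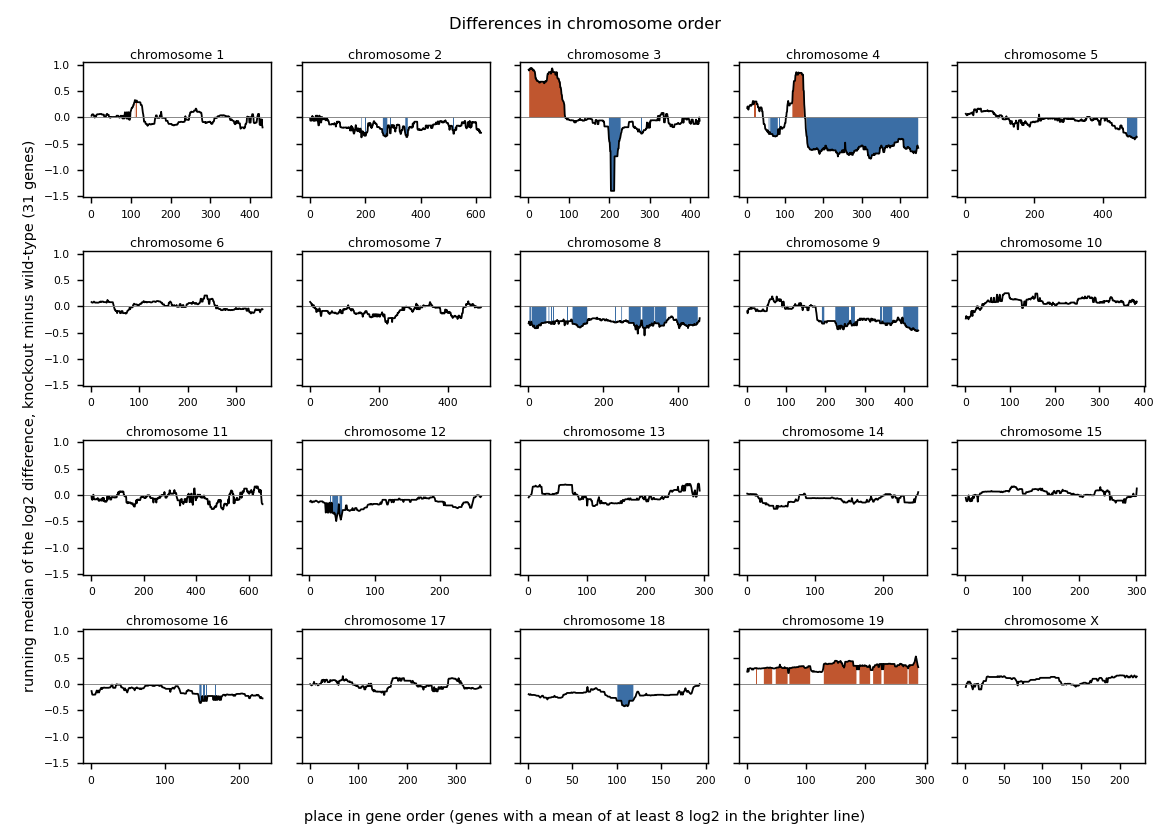
Running median over 31 genes of the log2 difference, knockout minus wild-type, along each chromosome, with the place in gene order on the x axis; shading marks values past 0.3 in size, orange above and blue below. Chromosome 3 starts with a raised block and carries the dip of the epidermal complex, chromosome 4 turns from a raised block (median 0.81) to a long lowered one (-0.61), and chromosome 19 lies above and chromosome 8 below 0 along most of their length.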

How the data were processed

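RNA from 9 samples, 3 of each of 3 lines, was hybridised to Affymetrix mouse arrays, 1 sample per array. The authors deposited normalized log2 signals per probe set in the series' value table, per the labels and the file header. How these were made (background correction, normalization, summary) is not given in the sources used here, and the values were used as deposited. Signals under the floor compress differences of dim genes. The number of arrays limits the precision.

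Of 45101 probe sets, 64 controls were left out of the tests. Names came from GEO's platform annotation, updated through Entrez identifiers: 34945 probe sets had 1 symbol, 932 several and 9160 none. For a gene with several probe sets of that one symbol, the brightest over 9 arrays was used. limma 3.58.1 (R 4.3.3; lmFit and eBayes, 6 residual degrees of freedom, two-sided, Benjamini-Hochberg over 45037 probe sets) was fitted on all 9 arrays and tested on simulated data.

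The comparison, the gene lists and their members were chosen with earlier results of these data known. Genes were named by rule: the Gprc5 family and sex-linked genes, the 15 largest rises and 15 largest falls without overlap between the lines (leaving out clone names and probe sets that may cross-hybridise), in each list the 6 called members that differed most and the 2 brightest uncalled ones, and the called members of positional clusters. Any other gene is marked in the text as picked later. The floor and the running median over 31 genes were chosen after seeing the data. Gene order and promoters came from RefSeq (GRCm38.p6). Alternatives were another normalization, gene summary, filter, threshold, sample set, intensity trend, a replicate block and leaving out each array. Genes without a single symbol were not analysed here.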

Additional observations from a re-analysis of the deposited data

How the results depend on the processing

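The count of 888 called genes (345 higher, 543 lower) was 882 to 904 when any 1 array was left out (334 to 356 higher, 526 to 553 lower), and 1672 called probe sets became 1665 to 1757 (710 to 796 higher, 926 to 1021 lower). Only the threshold on fold moved these counts by over 1.5 times: with no fold limit 4109 genes were called (1572 higher, 2537 lower) and 7684 probe sets (3311 and 4373), at 1.5-fold 2164 genes (861 and 1303) and 4129 probe sets (1819 and 2310), and at 4-fold 231 genes (84 and 147) and 419 probe sets (170 and 249). Averaging the probe sets of each gene called 743 genes (296 and 447) and quantile normalization 886 (377 and 509). Gprc5a differed by -1.53 to -1.32 with 1 array left out, and at -1.41 it passed the 2-fold but not the 4-fold threshold. Bmf reversed to 0.03 without probe sets that may cross-hybridise.

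With the replicate number as a block, 1673 probe sets (724 higher, 949 lower) and 888 genes (345 and 543) were called, and Gprc5a differed by -1.41 (limma adjusted p = 1.84e-05). Deviations of same-numbered arrays had correlations of 0.04, 0.04 and 0.10, within the range of differently numbered pairs (-0.14 to 0.11). Whether same-numbered arrays shared a preparation was not tested. Of 301 named genes, 273 were tested under every setting: the filter on the dimmest probe sets removed 17, Defb4, Ces1g and Twist1 among them, and leaving out probe sets that may cross-hybridise removed 11. Of the 273, 240 kept direction and call under every setting except the fold thresholds.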
